A study of Mus musculus with 18 samples.

Results

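The vascular endothelium of the kidney was followed through 10 genes, Pecam1, Kdr, Flt1, Cdh5, Tek, Tie1, Emcn, Ehd3, Plvap and Nos3, chosen by name and found as 1 row each among the 32675 genes measured. Right kidneys came from wild-type male C57BL/6 mice, received at 6 weeks of age, with 6 mice in each of 3 groups. Ctrl mice were handled daily and not defeated, and no injection is described for them in the sources used here. Both other groups underwent chronic social defeat stress (CSDS), in which each mouse met an aggressive CD-1 resident for 10 min a day over 14 days. During CSDS the FLX group (StressFlx in the labels) received fluoxetine, an inhibitor of serotonin reuptake, at 10 mg per kg by daily intraperitoneal injection, and the PBS group (StressPbs) received phosphate-buffered saline. No saline-injected group without defeat is described, so that defeat and any effect of injection cannot be told apart in a comparison with Ctrl, and no group received fluoxetine without defeat. The study deleted 1 PBS mouse for excessive expression of inflammatory factors without naming it. PBS replicate 6 was taken to be that mouse, because it had 49.2 FPKM of Lcn2, a gene of injured tubules and neutrophils, against at most 6.37 FPKM in the other 17 mice. Values below are over the remaining 17 mice unless all 18 are named.

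Endothelial cells line every vessel of the kidney, from the fenestrated capillaries of the glomerulus to the peritubular capillaries and the vasa recta. Their survival and permeability depend on growth factors from neighbouring cells. VEGF-A, made by podocytes and tubule cells, signals through the receptor tyrosine kinase KDR, while FLT1 binds the same ligand tightly and, in its soluble form, withholds it from KDR. Angiopoietins act through TEK (TIE2), which pairs with the related receptor TIE1 and keeps vessels quiescent. The remaining genes encode junction proteins (PECAM1 and VE-cadherin, from Cdh5), surface and diaphragm proteins (EMCN and PLVAP), the membrane traffic protein EHD3, found chiefly on glomerular endothelium in the kidney, and the endothelial nitric oxide synthase, from Nos3.

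Stretches of upstream sequence are shown because Flt1 and Tek passed the test between FLX and Ctrl mice and because Kdr varied most closely with Flt1 from mouse to mouse. Each is the 250 bases before the RefSeq start of the gene on build GRCm38.p6, read 5′ to 3′ on the strand of the gene, with GGAA on either strand (TTCC on the reverse) in capitals. GGAA is the core bound by ETS factors such as ERG and FLI1, which are abundant in endothelium.
Flt1, chr5:147726012-147726261, minus strand: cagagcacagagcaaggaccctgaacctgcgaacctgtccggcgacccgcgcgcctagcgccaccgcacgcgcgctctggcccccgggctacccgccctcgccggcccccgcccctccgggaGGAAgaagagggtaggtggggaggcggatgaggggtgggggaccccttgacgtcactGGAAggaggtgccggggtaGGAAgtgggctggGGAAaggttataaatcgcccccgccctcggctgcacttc
Kdr, chr5:75978456-75978705, minus strand: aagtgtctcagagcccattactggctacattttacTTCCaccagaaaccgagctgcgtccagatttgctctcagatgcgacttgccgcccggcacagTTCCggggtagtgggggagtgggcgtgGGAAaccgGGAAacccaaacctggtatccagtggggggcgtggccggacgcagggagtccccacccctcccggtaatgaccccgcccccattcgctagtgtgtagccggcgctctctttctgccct
Tek, chr4:94739039-94739288, plus strand: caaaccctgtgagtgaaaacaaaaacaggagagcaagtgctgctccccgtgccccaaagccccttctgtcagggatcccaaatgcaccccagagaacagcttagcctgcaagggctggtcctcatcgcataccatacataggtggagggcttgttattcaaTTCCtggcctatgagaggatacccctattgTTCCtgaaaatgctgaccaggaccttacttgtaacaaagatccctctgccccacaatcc
Of the 10 genes, 6 had an entry in the promoter table used, the others being Tie1, Emcn and Ehd3. All 6 windows held GGAA, as did 93.4% of the 32851 windows of the same length in the table. Flt1 and Kdr each had 4 matches and Tek had 2, against a median of 3 over all windows. Tie1 had 7, a number reached or passed by 3.82% of all windows. Its window lies mostly inside the transcript that the deposited coordinates give for Tie1, and it is not printed for that reason. The window counted for Ehd3 lies wholly inside the gene as the deposited coordinates give it. CACCC, a sequence bound by Krüppel-like factors, or its reverse complement GGGTG was in 4 of the 6 windows and in 52.0% of all windows. GATA or TATC was in 3 of the 6 and in 53.6% of all.

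All 10 genes were expressed in every kidney, with estimated counts of at least 271 per gene and mouse, and all passed the filter on low counts. Total counts per mouse ranged from 48928823 to 79061296. FLX replicates 3 to 6 had 48928823 to 52073640, below the 72149987 to 79061296 of the other 14 mice. Levels are given in FPKM, fragments scaled by transcript length and by library size, a unit that allows a comparison between genes. The ranges of single mice and the permutation tests below use FPKM, without the further scaling between libraries (TMM) behind the fold changes. Over all genes tested, the median log2 difference between FLX and Ctrl was 0.06 on log2(FPKM + 0.1) and -0.01 on scaled counts. Between FLX and PBS it was 0.08 and -0.003. In Ctrl kidneys Plvap was by far the most abundant, at 39.9 ± 7.10 FPKM (SD, n = 6), and its lowest mouse (30.9) was above the highest Emcn value (12.0). Emcn followed at 9.23 ± 1.43 FPKM and Pecam1 at 7.16 ± 1.36, and the mice of these neighbours overlapped. Tek (4.66 ± 0.635), Tie1 (4.49 ± 0.483), Kdr (3.83 ± 1.08) and Cdh5 (3.70 ± 0.871) formed a middle rank in which each overlapped the next. Flt1 (1.83 ± 0.413), Ehd3 (1.49 ± 0.447) and Nos3 (1.08 ± 0.390) were lowest, again with overlapping mice. The Flt1 value sums the membrane and soluble forms of the receptor, which these gene-level values do not separate.

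**Figure D1:**
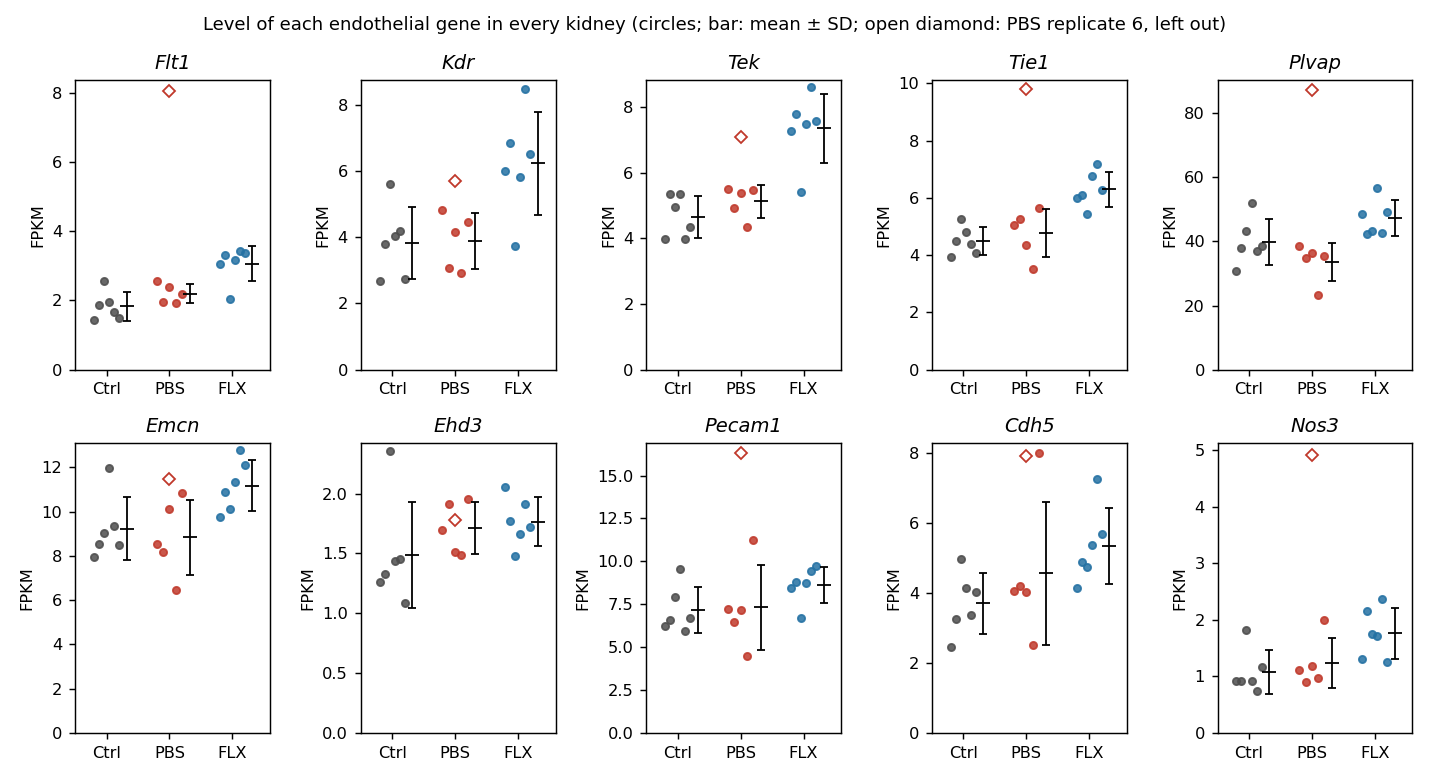
Level of each endothelial gene in FPKM (vertical axis, from 0) by group (horizontal axis). Circles are single kidneys (6 Ctrl, 5 PBS, 6 FLX), the bar beside them is the mean ± SD, and the open diamond is PBS replicate 6, which is outside the mean. The FLX circles of Tek and Tie1 lie above all Ctrl circles.

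Defeat with saline was compared with no defeat first. No endothelial gene changed between PBS and Ctrl kidneys at an adjusted p under 0.05 in edgeR's quasi-likelihood test. Of all 20251 genes tested, 2.14% were called higher in PBS and 1.67% lower, so that 0 of 10 is near these shares. None of the 10 was past an unadjusted p of 0.05 either, against 9.18% of all genes for the higher direction. None of them had all PBS mice above all Ctrl mice, against 1.77% of all genes. With all 6 PBS mice again 0 of 10 were called, against 2.45% of all genes called higher. The median log2 fold change of the 10 genes was 0.12, and that of all genes tested was -0.01. In bulk tissue, a difference in the number of endothelial cells and a difference in RNA per cell cannot be told apart, here and in all comparisons that follow.

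The largest fitted values between PBS and Ctrl were those of Cdh5, Flt1 and Plvap. Cdh5 had a log2 fold change of 0.30 (95% interval -0.15 to 0.75). Its PBS level depended on replicate 5, with 8.00 FPKM against 2.50 to 4.20 in the other 4 mice, and without that mouse the log2 fold change was 0.02. Flt1 was at 2.54, 1.96, 2.37, 1.92 and 2.18 FPKM in the PBS mice, with a fitted log2 fold change of 0.27 (SE, the standard error, 0.136, adjusted p = 0.307). These 5 mice were inside the Ctrl range of 1.44 to 2.56 FPKM. Plvap, the diaphragm gene, had the lowest value, a log2 fold change of -0.24 (95% interval -0.49 to 0.01, adjusted p = 0.309), with 38.5, 34.8, 36.5, 23.4 and 35.4 FPKM in the PBS mice and 30.9 to 51.9 (median 38.1) in Ctrl. With PBS replicate 6, at 87.3 FPKM, its log2 fold change turned to 0.08. For Kdr (0.02) and Pecam1 (0.03) the intervals ran from -0.38 to 0.43 and from -0.30 to 0.37, so that changes of this size in either direction were within what the data allow.

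Fluoxetine was then compared with saline among defeated mice. No endothelial gene passed an adjusted p of 0.05 in FLX versus PBS, where only 147 genes did in all and 0.306% of genes were called higher. At an unadjusted p under 0.05, 6 of the 10 were higher in FLX (Kdr, Flt1, Tek, Tie1, Emcn and Plvap), against 5.76% of all genes tested. The 10 genes varied together from mouse to mouse, as given below. Counts among them, here and in the next comparison, are therefore not counts of independent genes. The median log2 fold change of the 10 was 0.35, beside 0.00 over all genes.

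Plvap was the 1 gene of the 10 whose FLX mice were all above every PBS mouse in FPKM, an arrangement found for 2.45% of all genes. It was at 42.2 FPKM in the lowest FLX mouse, 46.1 at the median and 56.8 in the highest, against at most 38.5 in the 5 PBS mice. The exact two-sided permutation test on log2(FPKM + 0.1) gave p = 0.00433 (unadjusted), the smallest that 6 against 5 mice allow, which the separation by itself fixes. The log2 fold change was 0.39 (SE 0.120, adjusted p = 0.157). Over 18 mice it was 0.07 (adjusted p = 0.939).

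Tek, the angiopoietin receptor, came nearest to the threshold. The PBS mice had 5.50, 4.93, 5.38, 4.35 and 5.49 FPKM, and the FLX mice ranged from 5.43 to 8.61 with a median of 7.54. All FLX mice but replicate 3 were above every PBS mouse. The log2 fold change was 0.43 (SE 0.106, adjusted p = 0.0697), and without FLX replicate 3 it was 0.50 with an adjusted p of 0.0302. DESeq2 called the same difference (adjusted p = 0.0106). With all 6 PBS mice in edgeR it was 0.35 (adjusted p = 0.160).

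Kdr, the main signalling receptor for VEGF-A, had the largest log2 fold change of the 10 in FLX versus PBS, 0.59 (SE 0.196, adjusted p = 0.202). It was at 4.81, 3.07, 4.15, 2.91 and 4.45 FPKM in the PBS mice and at 3.73 to 8.46 (median 6.25) in FLX. As with Tek, 5 of 6 FLX mice exceeded every PBS mouse and replicate 3 did not. Flt1 (log2 fold change 0.39, adjusted p = 0.248) and Tie1 (0.31, adjusted p = 0.193) had the same arrangement. Nos3 was at 0.43 (adjusted p = 0.535) and Emcn at 0.25 (adjusted p = 0.407). Pecam1, Cdh5 and Ehd3 had values of 0.16, 0.15 and -0.04, with intervals that included 0.

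These values rest on which PBS mice were counted. With all 6, the median over the 10 genes was 0.03, 5 of 10 were higher and the log2 fold change of Flt1 was -0.12, while no gene was called, beside 0.226% of all genes. Markers of red cells and neutrophils had lower ranges in FLX than in PBS mice, although the groups overlapped. Red cell markers summed to 145 to 2129 FPKM in the 5 PBS mice and to 32.3 to 295 in the FLX mice, with 0 of 5 genes called. Neutrophil markers summed to 9.08 to 28.6 and 1.26 to 10.8 FPKM, and 1 of the 5 tested, S100a8, fell (log2 fold change -3.14, adjusted p = 0.0402), where 0.42% of all genes were called lower. This call was kept in 6 of 17 fits with a mouse left out, those without Ctrl replicate 3, 5 or 6, FLX replicate 5 or PBS replicate 2 or 5 (adjusted p in the others up to 0.142, without PBS replicate 4). Their part in the endothelial values was not tested. PBS replicate 4, with red cell markers at 1148 FPKM, was the lowest PBS mouse for 9 of the 10 genes, and PBS replicate 2, with the highest red cell sum of 2129 FPKM, for 1.

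**Figure D2:**
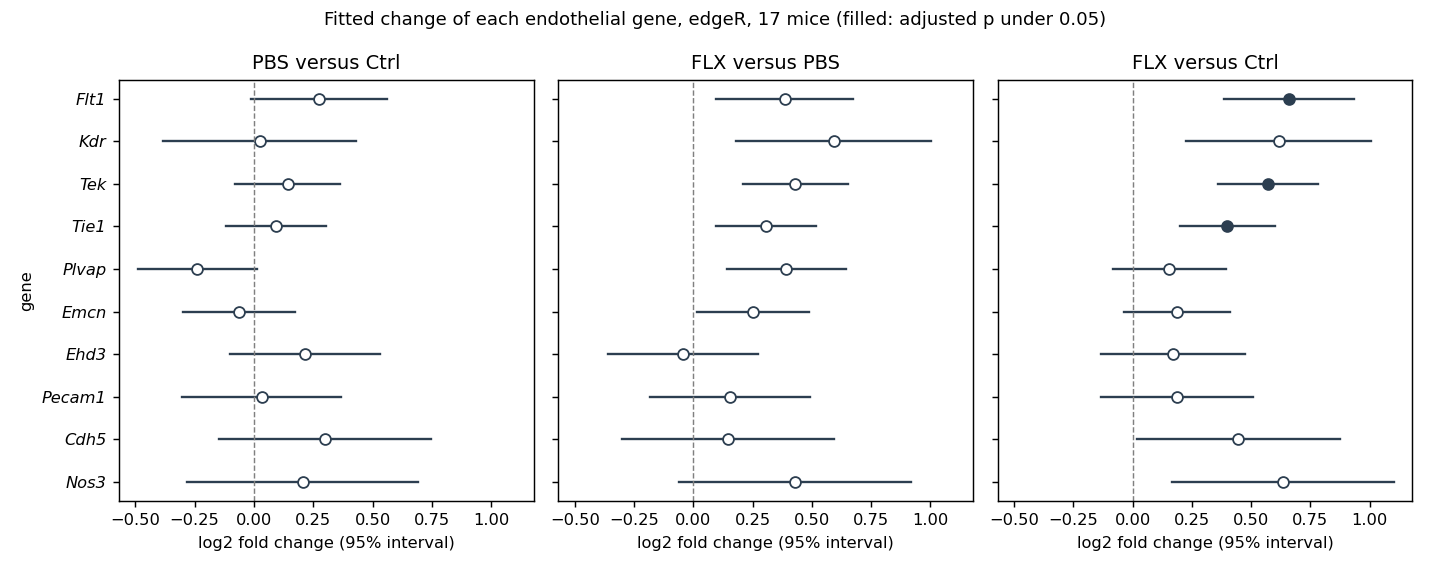
Fitted log2 fold change (horizontal axis) of each endothelial gene (rows) in the 3 comparisons, from edgeR over 17 mice. Lines are 95% intervals and filled circles have an adjusted p under 0.05, which only Flt1, Tek and Tie1 reach, all in FLX versus Ctrl.

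Fluoxetine-treated defeated mice were last compared with undefeated mice, a comparison that shares its FLX mice with the one before and its Ctrl mice with the first. Flt1, Tek and Tie1 were higher in FLX kidneys at an adjusted p under 0.05, 3 of 10 where 2.08% of all genes were called higher, and no gene of the 10 was called lower, against 1.59% of all genes. At an unadjusted p under 0.05, 6 of 10 were higher (with Kdr, Cdh5 and Nos3), against 10.2% of all genes. The median log2 fold change was 0.42 for the 10 and -0.01 for all genes.

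Tek had the lowest adjusted p of the 10 genes in this comparison. Ctrl mice had 3.99 to 5.35 FPKM (median 4.65) and FLX mice 5.43 to 8.61 (median 7.54). The groups did not overlap in FPKM, which held for Tek and Tie1 among the 10 genes and for 2.67% of all genes. This separation is stated for FPKM alone. The log2 fold change was 0.57 (SE 0.101, adjusted p = 0.00596), and the difference on log2(FPKM + 0.1) was 0.65. On that FPKM scale the exact permutation test gave p = 0.00216 (unadjusted), the smallest possible with 6 mice against 6. The lack of overlap in FPKM by itself fixes this p. Tek was called with each of the 17 mice left out in turn (adjusted p at most 0.0207) and with all 6 PBS mice in the model (adjusted p = 0.0184), where it was the 1 endothelial gene called beside 1.01% of all genes. In FLX replicates 1 and 2, the pair of full depth, Tek was at 7.28 and 7.81 FPKM, above every Ctrl mouse, and with those mice alone the log2 fold change was 0.66 with an adjusted p of 0.0839.

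Tie1, the partner of Tek, had 3.93 to 5.25 FPKM in Ctrl (median 4.44) and 5.44 to 7.19 in FLX (median 6.20). Here too every FLX mouse was above every Ctrl mouse in FPKM, which again fixes the exact permutation p at 0.00216. The log2 fold change was 0.40 (SE 0.0956, adjusted p = 0.0292). Tie1 lost its call without Ctrl replicate 1 (adjusted p = 0.0720), 2 (0.0582), 5 (0.0596) or 6 (0.0610) or FLX replicate 5 (0.0674), with no filter on low counts (0.0522), with FLX replicates 1 and 2 alone (0.370) and with all 6 PBS mice in the model (0.196), while the log2 fold change stayed between 0.37 and 0.44 with each mouse left out.

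Flt1, the high-affinity VEGF receptor, had the largest called change. It was at 1.44 to 2.56 FPKM in Ctrl mice (median 1.77) and at 2.04 to 3.42 in FLX mice (median 3.24), and the 5 FLX mice other than replicate 3 were above every Ctrl mouse. The log2 fold change was 0.66 (SE 0.131, adjusted p = 0.0126), and the exact permutation p was 0.00433. Leaving out any of the 17 mice kept the call, with adjusted p values up to 0.0361. With FLX replicates 1 and 2 alone the log2 fold change was 0.77 and the adjusted p was 0.109. With all 6 PBS mice in the model, PBS replicate 6 being at 8.04 FPKM, the log2 fold change was again 0.66, with a standard error of 0.281 and an adjusted p of 0.229.

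Kdr was close behind in size, with a log2 fold change of 0.62 (SE 0.186, adjusted p = 0.0710). In FPKM, 5 of 6 FLX mice were above every Ctrl mouse. Kdr was at 2.68 to 5.60 FPKM in Ctrl mice (median 3.90) and at 3.73 to 8.46 in FLX mice (median 6.25). Leaving out Ctrl replicate 3 or FLX replicate 3 brought its adjusted p to 0.0133 and 0.0265. Nos3, which makes nitric oxide in endothelium, had a log2 fold change of 0.63 (SE 0.223, adjusted p = 0.117), with 0.736 to 1.82 FPKM in Ctrl and 1.26 to 2.37 in FLX. Without Ctrl replicate 3, the highest Ctrl mouse, it was 0.83 (adjusted p = 0.0133). Cdh5 was at 0.45 (adjusted p = 0.224).

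Pecam1, Emcn, Ehd3 and Plvap had the smallest values of the 10. Pecam1 and Emcn each had a log2 fold change of 0.19, Ehd3 one of 0.17 and Plvap one of 0.15, with adjusted p values of 0.339 to 0.541 and intervals that reached from -0.13 to 0.51. All FLX mice were above the Ctrl mean for Emcn and Plvap, although the ranges overlapped. Fat cell markers reached 594 FPKM in PBS replicate 5 and 408 in FLX replicate 5 against at most 71.5 in Ctrl, with overlapping groups and 0 of 6 genes called. Mural cell markers summed to 43.9 to 65.0 FPKM in Ctrl and 60.2 to 123 in FLX, also with overlap. Without the pair of mice highest in fat markers, an alternative chosen after seeing the data, Flt1 (adjusted p = 0.0293) and Tek (0.0193) were called and Tie1 (0.0595) was not.

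Ratios between members of one kidney were tested to see whether paired genes moved apart, over 9 tests adjusted together. The ratio of Ehd3 to Plvap, glomerular against peritubular capillary genes, was 0.0414 to 0.0635 in the PBS mice (median 0.0550), 0.0276 to 0.0545 in Ctrl (median 0.0372) and 0.0292 to 0.0448 in FLX (median 0.0385). It was higher in PBS than in Ctrl by 0.48 on the log2 scale (exact permutation p = 0.0260, adjusted p = 0.136) and lower in FLX than in PBS by a log2 difference of -0.45 (exact permutation p = 0.0303, adjusted p = 0.136), so neither passed the adjustment. With all 6 PBS mice these values were 0.26 and -0.23. Kdr exceeded Flt1 in all 17 mice, with median ratios of 2.04 in Ctrl, 1.75 in PBS and 1.95 in FLX. The log2 difference of this ratio was -0.25 in PBS versus Ctrl (exact permutation p = 0.0519, adjusted p = 0.136). In FLX versus PBS it was 0.20 (exact permutation p = 0.0866, adjusted p = 0.156). With all 6 PBS mice these differences were -0.46 (exact permutation p = 0.0260) and 0.42 (0.0433), each with an adjusted p of 0.182. The ratio of Tek to Tie1 had medians of 1.04, 1.09 and 1.20, and 4 of 6 FLX mice were above every Ctrl mouse (log2 difference 0.17, exact permutation p = 0.0606, adjusted p = 0.136). No ratio had an adjusted p under 0.05 in any comparison.

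The 10 genes varied together from mouse to mouse. Over 17 mice and after removing group means, Pearson's r of log2(FPKM + 0.1) was between 0.10 and 0.92 for the 45 pairs, with a median of 0.57, as a description across kidneys that share library depth and tissue make-up. The VEGF receptors Kdr and Flt1 were the closest pair (0.92), followed by Pecam1 with Emcn (0.85) and Pecam1 with Cdh5 (0.84), while Plvap with Nos3 was the loosest (0.10). Tie1 had the highest mean r with the other 9 genes (0.68) and Nos3 the lowest (0.40). Ctrl replicate 1 was the lowest Ctrl mouse for 6 of the genes, PBS replicate 4 the lowest PBS mouse for 9 and FLX replicate 3 the lowest FLX mouse for 6, whereas FLX replicate 5 was the highest FLX mouse for 7.

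**Figure D3:**
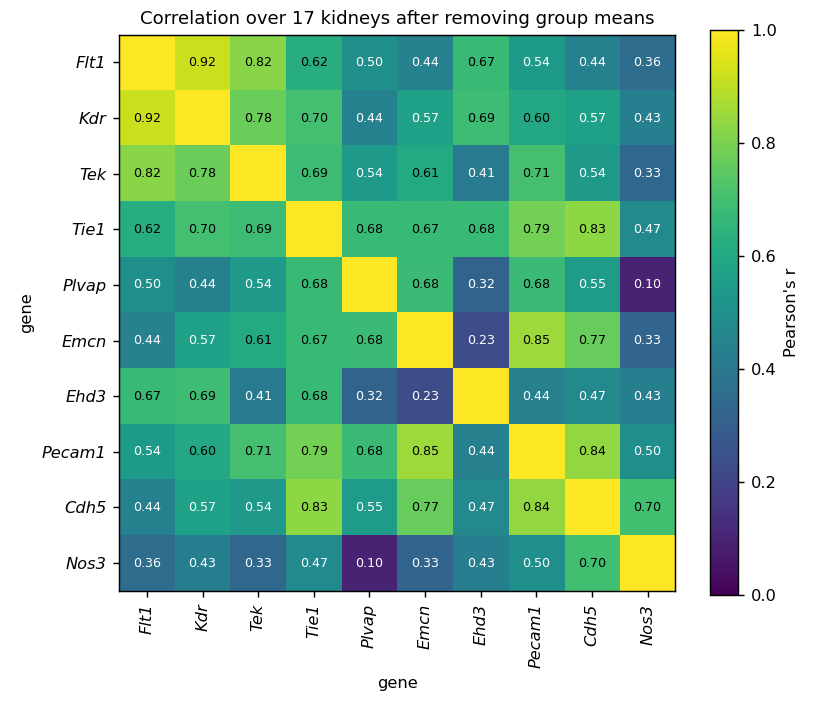
Pearson's r (colour and printed value) between each pair of endothelial genes (both axes) over 17 kidneys, on log2(FPKM + 0.1) with group means removed. Kdr with Flt1 is the highest pair at 0.92, and Plvap with Nos3 the lowest at 0.10.

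Outside the 10, the genes with the highest mean r to them were Hspg2 (0.74), which encodes the basement membrane proteoglycan perlecan, Nrp2 (0.71), a VEGF co-receptor, Kctd10 (0.70), Cd300lg (0.68), a surface protein of capillaries, and Efnb2 (0.68), an arterial ligand. The median over 12089 genes was 0.11. Of these 5, Kctd10 was called in FLX versus Ctrl (log2 fold change 0.42, adjusted p = 0.0219), where 2.08% of all genes were called higher. The others were not, at 0.16 for Hspg2, 0.27 for Nrp2, 0.20 for Cd300lg and 0.47 for Efnb2.

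**Figure D4:**
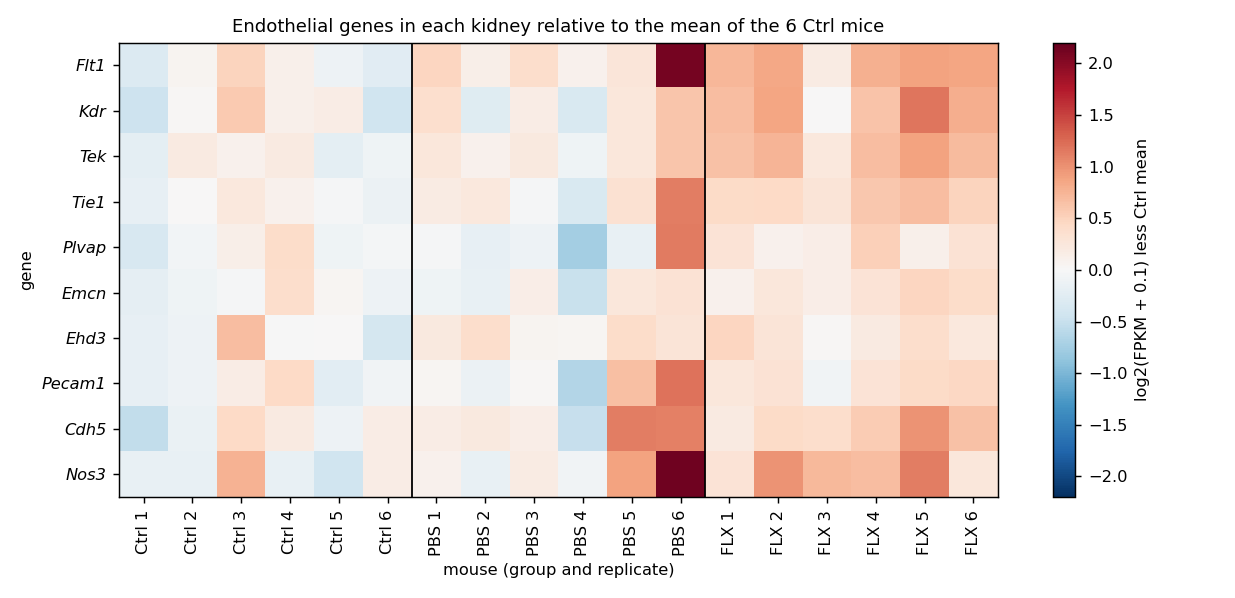
Each endothelial gene (rows) in each of 18 kidneys (columns, by group and replicate) as log2(FPKM + 0.1) less the mean of the 6 Ctrl mice. Red is higher and blue lower. PBS replicate 6 stands out for Flt1 and Nos3, and FLX replicate 3 is paler than the other FLX mice for Flt1, Kdr and Tek.

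Ligands and co-receptors of the VEGF receptors were measured beside them. Of 8 such genes, Vegfd, a ligand of FLT4 that in mice does not bind KDR, rose in PBS kidneys, from 1.93 ± 0.339 FPKM in Ctrl to 2.78 ± 0.372 (log2 fold change 0.53, adjusted p = 0.0375), and the other 7 were not called in any comparison. In PBS versus Ctrl 2.14% of all genes were called higher. Vegfd was no longer called when Ctrl replicate 1, 2, 4, 5 or 6, or 1 of the PBS replicates 1, 3, 4 and 5, was omitted (adjusted p up to 0.106). None of the 4 genes for angiopoietins and VE-PTP, a phosphatase that acts on TEK, was called. Angpt2, which can antagonise TEK, was at 4.12 ± 1.62 FPKM in Ctrl, 2.44 ± 1.46 in PBS and 2.72 ± 1.15 in FLX, and its log2 fold change in PBS versus Ctrl was -0.76 (adjusted p = 0.378). None of 11 further genes of nitric oxide synthesis and signalling was called either. Ddah1, the most abundant, which breaks down inhibitors of nitric oxide synthase, had 45.1 FPKM in Ctrl and PBS kidneys and 45.5 in FLX. Nos2, the inducible synthase, was at 0.132 FPKM in Ctrl and 0.0592 in PBS (log2 fold change -1.15, adjusted p = 0.363).

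Genes that respond to flow or control clotting were followed next. Of 11, Klf2, Klf4 and Thbd rose in FLX versus Ctrl, where 2.08% of all genes were called higher. In PBS versus Ctrl Thbd rose and Ace fell, where 2.14% of all genes were called higher and 1.67% lower. Klf2, a transcription factor induced by laminar flow, was at 2.12 to 6.28 FPKM in Ctrl mice and 7.60 to 10.6 in FLX mice without overlap (log2 fold change 1.04, SE 0.22, adjusted p = 0.0151). Klf4, its relative, had 1.23 to 1.70 and 2.47 to 3.43 FPKM (log2 fold change 0.87, adjusted p = 0.00764). Thbd, the thrombomodulin gene, was at 2.18 to 3.58 FPKM in Ctrl, 4.18 to 5.57 in PBS and 3.85 to 6.58 in FLX, so that both defeated groups lay above all Ctrl mice (log2 fold changes 0.73, adjusted p = 0.00527, and 0.89, adjusted p = 0.00159). These calls held with each of the 17 mice left out. With all 6 PBS mice Thbd had an adjusted p of 0.0156 in PBS versus Ctrl and 0.0703 in FLX versus Ctrl. Ace, the angiotensin-converting enzyme, expressed by proximal tubule cells as well as endothelium, was at 25.2 to 42.4 FPKM in Ctrl and at 20.1 ± 1.85 (SD, n = 5) with at most 22.0 in PBS, and fell by 0.67 on the log2 scale (adjusted p = 0.0226). Ace was not called without Ctrl replicate 5 (adjusted p = 0.0552) or with all 6 PBS mice (0.0960).

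Among 24 further pan-endothelial genes, 1 rose in PBS versus Ctrl, 1 in FLX versus PBS and 3 in FLX versus Ctrl, and none fell. The shares of all genes called higher were 2.14%, 0.306% and 2.08%. The median log2 fold changes of the 24 were -0.05, 0.16 and 0.19. S1pr1, the receptor for sphingosine 1-phosphate that stabilises the barrier and that lymphocytes also carry, was at 2.09 to 3.39 FPKM in Ctrl, 4.15 to 9.03 in PBS and 4.43 to 6.30 in FLX. It was called against Ctrl in both defeated groups (log2 fold changes 0.99, adjusted p = 0.00416, and 0.78, adjusted p = 0.0191), with each of the 17 mice left out too. Acvrl1, a receptor of the BMP family, and Mmrn2, a matrix protein of endothelium, rose in FLX versus Ctrl by log2 fold changes of 0.46 (adjusted p = 0.0291) and 0.42 (adjusted p = 0.0273). Acvrl1 was not called without Ctrl replicate 1, 4 or 5 or FLX replicate 1, 4 or 5 (adjusted p up to 0.0707), and Mmrn2 not without Ctrl replicate 1, 2, 5 or 6 or FLX replicate 6 (up to 0.0699).

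Sox18 and Dll4 were the endothelial genes called between FLX and PBS. Sox18, a transcription factor of endothelial identity, was at 1.51 to 3.73 FPKM in PBS and 4.66 to 6.68 in FLX mice (log2 fold change 0.97, SE 0.17, adjusted p = 0.0155), with 2.88 to 4.56 in Ctrl. The 2 defeated groups did not overlap, and the call held over 18 mice (0.99, adjusted p = 0.0107) and with each mouse left out. Dll4, the Notch ligand of arterial and sprouting endothelium and 1 of 9 arterial, venous and vasa recta genes, fell in PBS versus Ctrl (log2 fold change -0.83, adjusted p = 0.0169), where 1.67% of all genes were called lower. It was higher in FLX than in PBS (0.82, adjusted p = 0.0465), where 0.306% of all genes were called higher. It had 1.68 to 2.89 FPKM in Ctrl, 1.06 to 1.90 in PBS and 1.78 to 3.59 in FLX, and these comparisons share the PBS mice. Its second call was kept in 4 of 17 cases with a mouse left out, those without Ctrl replicate 1 or 3, FLX replicate 4 or PBS replicate 3 (adjusted p in the others up to 0.149, without PBS replicate 4), and the first was lost without PBS replicate 4 (0.0539).

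Of 6 leukocyte adhesion genes of activated endothelium, 4 had enough counts to be tested. Vcam1, which captures leukocytes and is also made by tubule cells, rose in FLX versus Ctrl from 0.820 ± 0.203 to 1.56 ± 0.684 FPKM (log2 fold change 0.83, adjusted p = 0.0269), but not without Ctrl replicate 1, 2, 4, 5 or 6 (adjusted p up to 0.0653). In FLX versus Ctrl 2.08% of all genes were called higher. None of 3 glomerular endothelial genes was called, and Pi16 had log2 fold changes of 0.64 in PBS versus Ctrl and 0.60 in FLX versus Ctrl. None of 4 lymphatic genes was called, with Ccl21a at 5.71 ± 1.33, 6.37 ± 1.84 and 6.46 ± 2.54 FPKM in Ctrl, PBS and FLX and Lyve1 higher in PBS than in Ctrl kidneys by 1.56 on the log2 scale without passing the test (adjusted p = 0.250).

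Cells that border the endothelium were measured in the same kidneys. Podocyte markers, 0 of 7 called in every comparison over 17 mice, summed to 42.5 to 59.4 FPKM in Ctrl, 57.0 to 67.7 in PBS and 49.6 to 80.8 in FLX. Of 9 mural and mesangial markers, Acta2, the smooth muscle actin gene, rose in PBS versus Ctrl (log2 fold change 0.92, adjusted p = 0.0409), where 2.14% of all genes were called higher. Acta2 also rose in FLX versus Ctrl (1.12, adjusted p = 0.0156), where 2.08% were. It had 9.48 to 18.6 FPKM in Ctrl, 17.4 to 30.3 in PBS and 15.3 to 44.7 in FLX. The first of these calls was lost in 7 of 17 cases with a mouse left out, those that left out Ctrl replicate 1, 2, 5 or 6, or else PBS replicate 1, 2 or 5 (adjusted p up to 0.106). Proximal tubule markers, at 1033 to 1311 FPKM in Ctrl, 1058 to 1273 in PBS and 1047 to 1282 in FLX, had 0 of 5 called. Calb1, of the distal tubule, rose in PBS versus Ctrl (log2 fold change 0.95, adjusted p = 0.00354), as did S100a8 (2.96, adjusted p = 0.0205) and S100a9 (2.66, adjusted p = 0.0285). These were 1 of 4 thick limb and distal tubule markers and 2 of 5 neutrophil markers tested, where 2.14% of all genes were called higher. S100a8 lost this call without Ctrl replicate 2 or PBS replicate 4 (adjusted p up to 0.0703), and S100a9 when Ctrl replicate 1, 2, 4 or 5, or else PBS replicate 1 or 4, was left out (up to 0.0969). Collecting duct (4 genes), macrophage (6), platelet (3 of 5 tested), red cell (5) and fat cell (6) markers had no call in any comparison. The part of these neighbouring cells in the endothelial values was not tested.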

How the data were processed

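Poly(A) RNA of 18 right kidneys was sequenced in read pairs. According to the study's methods, reads were cleaned with fastp, aligned to GRCm38 with HISAT-3N, and assembled and quantified with StringTie. The submitters' processing notes name cutadapt 1.9, HISAT2 2.0.4 and StringTie 1.3.4d without roles. The authors deposited FPKM values and an estimated count for each gene and mouse. Which tool made the counts was not given in the sources used here. Over all mice, 13084 of these counts were 4, against 8741 at 3 and 4863 at 5, so they were treated as estimates.

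Groups came from the sample titles. Counts were compared in R 4.3.3 with edgeR 4.0.16 (quasi-likelihood test, TMM scaling, filterByExpr, 20251 genes kept) in 1 model over 17 mice with group as the 1 term. Benjamini-Hochberg adjustment covered all genes tested, with a threshold of 0.05. The SE is the coefficient over the square root of F. Genes and ratios were also tested by an exact two-sided permutation test in scipy 1.17.1 on log2(FPKM + 0.1), the ratios without a pseudocount. The permutation p values of single genes were not adjusted. DESeq2 1.42.0, limma 3.58.1 on FPKM, other scaling, no filter, a replicate block, all 6 PBS mice and left-out mice were tried as alternatives, and the code was tested on simulated data.

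The 10 genes and all lists were chosen with earlier results of these data known. Named besides the 10 were list genes with an adjusted p under 0.05 in any comparison, the most abundant gene and the most changed one (PBS versus Ctrl) of endothelial lists without a call, and the 5 genes with a mean FPKM of at least 1 that correlated best with the 10. Uncalled genes of other cell types are given by list. Upstream sequences are from RefSeq (GRCm38.p6).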

Additional observations from a re-analysis of the deposited data

Results flagged for a closer look

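In 39 sets of values, the 10 genes and 3 ratios in each group of 6 mice, the gap between the most extreme mouse and its neighbour passed the 95% limit of Dixon's test in 8 sets. For a single set chance alone gives about 1 in 20. The sets share mice and genes that vary together, and the PBS sets include a mouse already picked as extreme. The 8 of 39 therefore cannot be read as an excess over chance. Of the 8, 5 were PBS replicate 6, the mouse left out. It had 8.04 FPKM of Flt1, 9.82 of Tie1, 87.3 of Plvap and 4.91 of Nos3, and a log2 ratio of Kdr to Flt1 of -0.50, the 1 kidney in which Flt1 exceeded Kdr. The others were Ctrl replicate 4, with 12.0 FPKM of Emcn, Ctrl replicate 3, with 2.36 FPKM of Ehd3, and FLX replicate 3, which was low for Flt1 at 2.04 FPKM.

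PBS replicate 6 was also above every Ctrl mouse for 8 of the 10 genes. Beside the 4 genes given above these were Pecam1 (16.3 FPKM), Kdr (5.70), Cdh5 (7.90) and Tek (7.09). For 5 genes, Pecam1, Flt1, Tie1, Plvap and Nos3, it was above all 17 other mice. Its neutrophil markers summed to 108 FPKM, most of it from Lcn2 (49.2), S100a9 (32.8) and S100a8 (22.1). Lcn2 was used to pick this mouse, so that its high neutrophil sum is not a separate result. Its podocyte markers summed to 95.6 FPKM and its mural markers to 144, each above all other mice. Its proximal tubule markers summed to 676 FPKM, below all other mice. The part of these cells in its endothelial values was not tested.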

How the results depend on the processing

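Of 840 alternative values for the 30 fold changes of the endothelial genes, 784 kept their direction and their side of the threshold, 14 lost a call, 11 gained one and 31 turned direction. The turned values were uncalled, between -0.16 and 0.12. The cause of these changes was not tested. The endothelial genes called in FLX versus Ctrl, 3 in the report, were 5 with DESeq2, 1 with all 6 PBS mice, 1 with the replicate block (adjusted p = 0.055 for Flt1 and 0.0712 for Tie1), 2 without the filter on low counts and 0 with FLX replicates 1 and 2 only, and from 2 (without Ctrl replicate 1, 2, 5 or 6 or FLX replicate 5) to 5 (without Ctrl replicate 3) with mice left out. The share of all genes called higher moved too. It was 422 of 20251 in the report, 927 of 15127 with DESeq2 and 202 of 19946 with all 6 PBS mice. With the block it was 153 of 20251, without the filter 209 of 31985 and with FLX replicates 1 and 2 only 4 of 21863. With mice left out it went from 160 of 20134 (without Ctrl replicate 5) to 1557 of 20093 (without Ctrl replicate 3). In FLX versus PBS, where edgeR called 0 endothelial genes (6 at an unadjusted p under 0.05, against 5.76% of all genes), they were 1 with DESeq2 and with limma on log2(FPKM + 0.1) or log2(FPKM + 1), and 0 to 1 with mice left out, Tek being called without FLX replicate 3. Of all genes, 62 of 20251 were called higher there by edgeR and 251 of 16301 by DESeq2. The 2 limma fits called 192 and 182 of 20251 higher, and edgeR without FLX replicate 3 called 38 of 20133. Over all genes, the 772 called in PBS versus Ctrl became 1424 with DESeq2, 419 with the replicate block and 388 (without PBS replicate 1) to 1662 (without Ctrl replicate 3) with mice left out. The 147 of FLX versus PBS became 88 without the filter on low counts, 498 with DESeq2, 255 and 242 with limma, 67 with the block, 0 with FLX replicates 1 and 2 and 47 (without PBS replicate 4) to 250 (without Ctrl replicate 3) with mice left out. The 744 of FLX versus Ctrl became 378, 1645, 1214 and 1197, 258 and 4 in the same order, 354 with all 6 PBS mice and 271 (without Ctrl replicate 5) to 3099 (without Ctrl replicate 3) with mice left out. Upper-quartile scaling turned the 433 higher and 339 lower genes of PBS versus Ctrl into 314 and 449, and limma on log2(FPKM + 0.1) turned the 422 and 322 of FLX versus Ctrl into 979 and 235 and the 62 and 85 of FLX versus PBS into 192 and 63.

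Directions turned as follows (log2 values). In PBS versus Ctrl, upper-quartile scaling gave -0.014 for Pecam1 and -0.020 for Kdr, limma gave -0.0099 (pseudocount 0.1, with or without a filter) and -0.0045 (pseudocount 1) for Pecam1, the block gave -0.011 for Kdr, and all 6 PBS mice gave 0.083 for Plvap and 0.19 for Pecam1 on log2(FPKM + 0.1). With mice left out, Pecam1 went from -0.16 to 0.15, Kdr from -0.074 to 0.14, Emcn from -0.13 to 0.021 and Nos3 from -0.016 to 0.40, and on log2(FPKM + 0.1) Pecam1 went from -0.18 to 0.15, Kdr from -0.055 to 0.15 and Emcn from -0.15 to 0.033. In FLX versus PBS, all 6 PBS mice gave -0.098 for Pecam1, -0.12 for Flt1, -0.0082 for Cdh5 and -0.13 for Nos3. FLX replicates 1 and 2 gave -0.045 for Cdh5 and 0.12 for Ehd3. Ehd3 was also at 0.045 with limma (pseudocount 0.1) and 0.030 (pseudocount 1), at 0.0067 with the block, from -0.098 to 0.0015 with mice left out and from -0.0013 to 0.092 on log2(FPKM + 0.1). The Tek to Tie1 ratio turned to -0.030 in PBS versus Ctrl with all 6 PBS mice. In FLX versus Ctrl the Ehd3 to Plvap ratio went from -0.046 to 0.15 and the Kdr to Flt1 ratio from -0.10 to 0.014 with mice left out. The labels give no shared source for mice with the same replicate number. Across 16 same-numbered pairs r was -0.22 to 0.29, over 0.1 in 3, and 3 of 17 mice correlated best with their own number, so the numbers were not taken as a pairing.

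With 5 or 6 mice a group, fold changes of the endothelial genes had standard errors of 0.0956 to 0.234. Calls depended on this spread as well as on size. In FLX versus Ctrl, Tie1 was called at a log2 fold change of 0.40, while Kdr at 0.62 and Nos3 at 0.63 were not. The 4 FLX mice with fewer counts leave 2 FLX mice of the depth of the other groups. No Ctrl or PBS mouse had so few counts, so that depth and treatment cannot be told apart for these 4 mice.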
